A study of Mus musculus with 6 samples.

Results

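The antioxidant enzymes described here are glutathione peroxidases, superoxide dismutases, catalase and peroxiredoxins. The genes were listed by name as Gpx1, Gpx3, Gpx4, Gpx7, Sod1, Sod2, Sod3, Cat, Prdx1 and Prdx6, and every probe set annotated to exactly 1 of these symbols was taken. Of the 10 genes, 8 had such a probe set, 18 probe sets in all, out of 45037 non-control probe sets that name 18193 genes. Prdx1 appeared only in 5 probe sets annotated to a further gene as well, which were assigned to neither gene, and Prdx6 was not analysed here. The family was selected on the LIGHT Tg against WT signals of these same 6 arrays, in which Gpx3 differed, so the genotype values of its members are a description and carry no test.

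Liver was taken from LIGHT Tg mice (3 samples) and WT mice (3 samples), all aged 4 to 8 weeks and all fed the high-fat diet TD88137 for 2 weeks, with total liver RNA hybridised to 1 Affymetrix array per sample. LIGHT, the product of Tnfsf14, is a ligand of the tumour necrosis factor family. Only the WT mice have a named strain, B6, so strain background and transgene cannot be told apart, and no source used here names the promoter or cell type of the transgene. Titles and source names set the groups, although every sample's description reads wild-type.

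Signals are the authors' MAS5 intensities on a linear scale and summed to between 30979300 and 32707200 per array. Each genotype has 1 array titled 77 or 78 (LIGHT Tg 1 and WT 1) and 2 arrays titled 30 to 35, and what the number means is not given. The arrays titled 77 and 78 stood apart, with Xist at 406.6 to 444.0 against 7993 to 9714 on the other 4, the Y-linked Eif2s3y at 1037 to 1272 against 2.1 to 2.82, and the 18S ribosomal control at 196.4 to 243.4 against 17443 to 17948. LIGHT Tg 1 and WT 1 are therefore not repeats of the RNA on the other arrays of their genotype. By Xist and Eif2s3y the arrays titled 77 and 78 read as male and the other 4 as female, and sex and the 18S difference cannot be told apart here. The labels do not state whether samples 2 and 3 of a genotype are different animals, and the spread between those may be technical. The first principal component held 48.0% of the variance and set WT 1 and LIGHT Tg 1 (scores -73.6 and -57.3) apart from the other 4 (28.5 to 36.8). The second held 30.3% and set the genotypes apart, with WT at -39.9 to -33.6 and LIGHT Tg at 28.1 to 45.7. As both title-number sets hold both genotypes, values within each set are given beside the pooled ones.

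Superoxide made by mitochondria and oxidases is converted to hydrogen peroxide by superoxide dismutases, which are cytosolic (Sod1), mitochondrial (Sod2) or secreted (Sod3). Catalase breaks down hydrogen peroxide in peroxisomes, and glutathione peroxidases reduce hydrogen peroxide and lipid peroxides with glutathione as the electron donor. Hepatocytes are rich in catalase, Gpx1 and Sod1, whereas the plasma enzyme Gpx3 is known mainly as a product of the kidney proximal tubule.

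Gpx3 was the member with the large difference. Its only probe set, 1449106_at, measured 9949, 10759 and 11075 in LIGHT Tg 1 to 3, against 797.5, 397.2 and 704.0 in WT 1 to 3. The lowest LIGHT Tg signal lay far above the highest WT signal, and the groups did not overlap. The signal averaged 10594 ± 581.0 in LIGHT Tg and 632.9 ± 209.4 in WT (SD, n = 3 each). On the log2 scale LIGHT Tg minus WT was 4.13 ± 0.262 (SE), a 17.5-fold higher level. The difference was 3.64 between the arrays titled 77 and 78 and 4.37 among those titled 30 to 35. Of 22519 probe sets past the filter on low signals, 14 had a log2 difference at least as large, Gpx3 included. Over the 13 alternative settings the log2 difference lay between 3.82 and 4.37, though the title-number block and the mean of all probe sets could not change it.

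**Figure D1:**
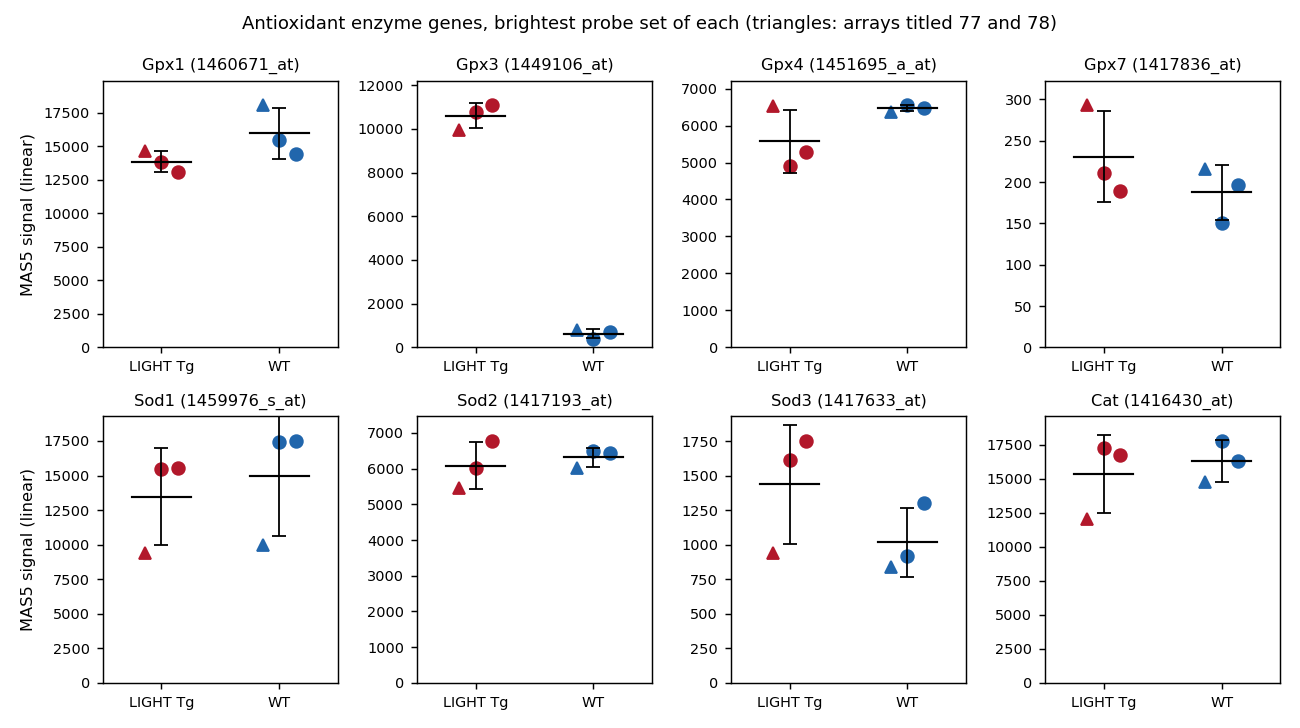
MAS5 signal (linear axis from 0) of the brightest probe set of each gene on every array, LIGHT Tg left and WT right; points are arrays, triangles mark the arrays titled 77 and 78, bars are the mean and SD of 3 arrays. Gpx3 sits between 9949 and 11075 in LIGHT Tg, against 397.2 to 797.5 in WT, while the groups overlap for the other 7 genes.

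The upstream sequences of Gpx3, of its cytosolic relative Gpx1 and of Sod1 are shown because the first had the large difference and the others, both bright in liver, did not. Each is the 250 bases before the annotated start in RefSeq (GRCm38.p6, plus strand), at chr11:54902604-54902853 for Gpx3, chr9:108338830-108339079 for Gpx1 and chr16:90220512-90220761 for Sod1. Capitals mark matches on either strand to the core of the antioxidant response element (TGACNNNGC), the CCAAT box (CCAAT) or the TATA box (TATAAA).
Gpx3: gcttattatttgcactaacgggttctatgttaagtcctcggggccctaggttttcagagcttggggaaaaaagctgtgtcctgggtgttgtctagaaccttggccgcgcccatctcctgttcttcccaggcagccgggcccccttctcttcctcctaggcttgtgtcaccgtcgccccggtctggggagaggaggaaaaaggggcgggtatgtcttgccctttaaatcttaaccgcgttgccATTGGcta
Gpx1: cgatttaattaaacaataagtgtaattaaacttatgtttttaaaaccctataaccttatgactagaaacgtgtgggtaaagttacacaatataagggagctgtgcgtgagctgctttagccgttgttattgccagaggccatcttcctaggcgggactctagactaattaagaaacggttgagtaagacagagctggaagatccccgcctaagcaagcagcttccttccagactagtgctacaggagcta
Sod1: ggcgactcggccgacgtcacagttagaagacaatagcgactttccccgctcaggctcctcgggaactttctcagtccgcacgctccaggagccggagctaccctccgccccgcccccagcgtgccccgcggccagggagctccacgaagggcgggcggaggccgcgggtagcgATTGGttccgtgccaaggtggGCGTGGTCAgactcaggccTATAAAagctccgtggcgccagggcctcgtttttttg

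The Gpx3 window held 1 CCAAT match and neither of the other motifs. The Gpx1 window held no match to any of the 3, and the Sod1 window held 1 match to each, with no overlap between matches. Among 32851 RefSeq windows of the same length, 10.2% held the antioxidant response element core, 33.9% the CCAAT box and 12.4% the TATA box. Of the 10 genes, 8 had at least 1 window in the table, 11 windows in all. The antioxidant response element core was in 2 of these windows, those of Sod1 and Prdx1, the TATA box in 2 and the CCAAT box in 7, which belong to 5 genes. Gpx4 has 4 of the 11 windows, and 2 of these overlap, so some CCAAT matches are counted in both. A match is a description of letters and not of a bound site, and the bases held 55.2% G or C for Gpx3, 42.0% for Gpx1 and 66.4% for Sod1.

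The 3 other glutathione peroxidases measured had small differences. Gpx1, the abundant cytosolic and mitochondrial selenoenzyme, measured 14661, 13857 and 13101 in LIGHT Tg 1 to 3, against 18070, 15459 and 14406 in WT 1 to 3. LIGHT Tg 1 lay above WT 3, so the groups overlapped, and the LIGHT Tg minus WT difference was -0.20 ± 0.115 on the log2 scale (SE, n = 3 per group). Gpx4, the phospholipid hydroperoxide peroxidase that protects cells from ferroptosis, had 6530, 4914 and 5282 in LIGHT Tg 1 to 3, against 6378, 6548 and 6486 in WT 1 to 3 at its brighter probe set 1451695_a_at. The log2 difference was -0.23 ± 0.137, with 0.03 between the arrays titled 77 and 78 and -0.36 among those titled 30 to 35. At 1456193_x_at, whose suffix marks probes that can bind related transcripts, the Gpx4 difference was -0.03 ± 0.239. RefSeq annotates Gpx4 pseudogenes, whose signal cannot be told apart from that of Gpx4 at such probes. Gpx7, a peroxidase of the endoplasmic reticulum, was dim, with 292.8, 210.6 and 188.6 in LIGHT Tg 1 to 3, against 215.7, 150.8 and 196.9 in WT 1 to 3, and its log2 difference was 0.29 ± 0.283.

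The cytosolic and mitochondrial superoxide dismutases had negative differences at all but 1 of their 9 probe sets, against 51.9% of all probe sets tested. The 9 include 1 below the filter, and probe sets of a gene are not independent. At the brightest probe sets of Sod1 and Sod2 the sign changed when 1 array was left out, so the count is a description. Sod1 had 10976, 13642 and 12891 in LIGHT Tg 1 to 3, against 12872, 15539 and 14984 in WT 1 to 3, at 1451124_at, a log2 difference of -0.21 ± 0.126. LIGHT Tg 2 and LIGHT Tg 3 lay above WT 1, so the groups overlapped. At the brightest Sod1 probe set, 1459976_s_at, whose suffix marks probes shared by several transcripts, the difference was -0.14 ± 0.280. The other Sod1 probe sets had -0.12 ± 0.644 at 1440222_at and 0.08 ± 0.191 at 1435304_at. The fifth, 1447761_x_at, had signals between 3.27 and 117.2 and fell below the filter.

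Sod2, the manganese enzyme of the mitochondrial matrix, differed by probe set. At the brightest, 1417193_at, signals were 5458, 6008 and 6784 in LIGHT Tg 1 to 3, against 6014, 6491 and 6446 in WT 1 to 3, and the log2 difference was -0.06 ± 0.124. At 1454976_at signals were 912.8, 1310 and 1238 in LIGHT Tg 1 to 3, against 1879, 1666 and 1624 in WT 1 to 3. All LIGHT Tg values there lay below all WT values, and the log2 difference was -0.59 ± 0.187, with -1.04 between the arrays titled 77 and 78 and -0.37 among the others. The remaining Sod2 probe sets had -0.12 ± 0.177 at 1448610_a_at and -0.43 ± 0.278 at 1417194_at, and their groups overlapped. The 4 probe sets therefore gave log2 differences from -0.59 to -0.06 for the same gene.

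Sod3, the secreted copper and zinc enzyme that binds the extracellular matrix, had positive differences at both of its probe sets. Signals at 1417633_at were 941.8, 1613 and 1753 in LIGHT Tg 1 to 3, against 836.3, 914.8 and 1298 in WT 1 to 3, and the log2 difference was 0.47 ± 0.289. Within each title-number set the LIGHT Tg arrays were the higher ones, by 0.17 and 0.63 on the log2 scale. At 1417634_at signals were 138.7, 513.4 and 628.1 in LIGHT Tg 1 to 3, against 57.8, 333.6 and 363.3 in WT 1 to 3. The groups overlapped, with both arrays titled 77 and 78 low, and the log2 difference was 0.89 ± 0.840 without the title-number set as a block and 0.89 ± 0.198 with it.

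Catalase had small negative differences. At the brighter Cat probe set, 1416430_at, signals were 12070, 17244 and 16717 in LIGHT Tg 1 to 3, against 14777, 17808 and 16327 in WT 1 to 3, and the log2 difference was -0.10 ± 0.158. Among the arrays titled 30 to 35 the log2 difference was -0.01, and between those titled 77 and 78 it was -0.29. The other Cat probe set, 1416429_a_at, had -0.07 ± 0.124.

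**Figure D2:**
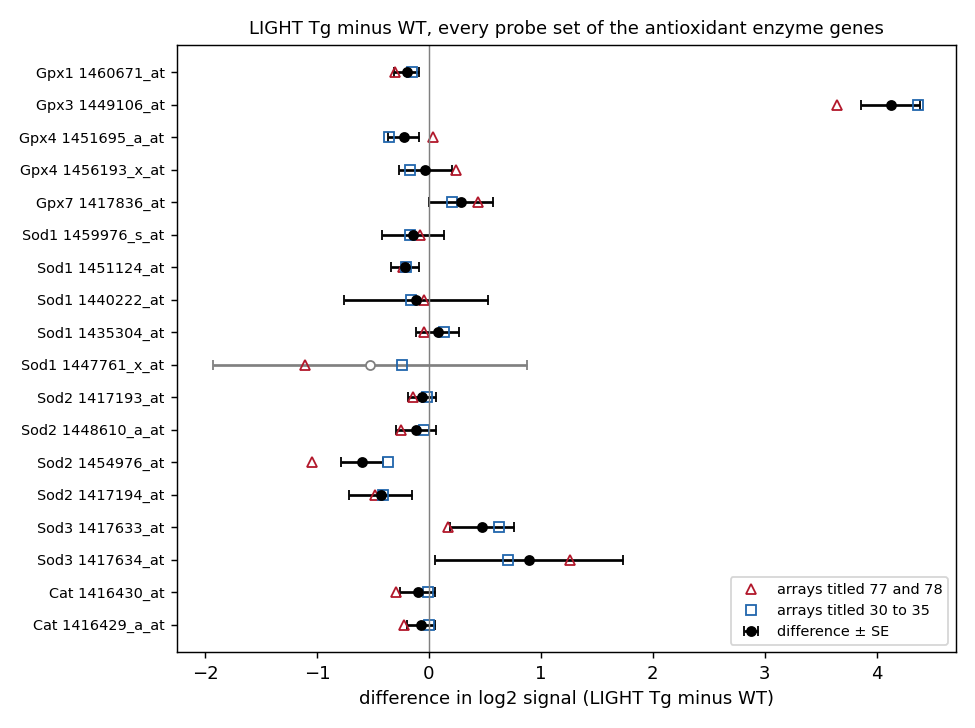
Difference in log2 signal, LIGHT Tg minus WT, for each of the 18 probe sets; filled circles with bars are the difference and its SE (n = 3 per group), the open grey circle is the probe set below the filter, triangles are arrays titled 77 and 78 and squares those titled 30 to 35. Gpx3 lies at 4.13 and the other probe sets past the filter lie between -0.59 and 0.89.

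Read together by their brightest probe sets, the 7 genes beside Gpx3 had log2 differences between -0.23 and 0.47, with a median of -0.10, against a median of -0.01 over all probe sets tested. Their median absolute difference was 0.199, against 0.209 over all probe sets tested. All probe sets tested include dim ones and several per gene, so they are not matched to these brightest probe sets. In limma with Benjamini-Hochberg adjustment at 5% FDR, 1 of the 17 tested member probe sets was called, that of Gpx3, against a background of 1.17% of all probe sets (0.715% higher and 0.457% lower in LIGHT Tg). Nothing is read from this count or the next 2, because the contrast chose the family. With the title-number set as a block 2 of 17 were called, Gpx3 and Sod3 at 1417634_at, against a background of 6.47% (3.26% higher and 3.21% lower). Groups did not overlap at 2 of 17, Gpx3 with LIGHT Tg higher and Sod2 at 1454976_at with LIGHT Tg lower, against a background of 17.4% (8.17% higher and 9.19% lower). Fewer cells of a type and less RNA per cell cannot be told apart in these whole-liver values.

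Whether the genotype difference of a member was unlike in the title-number sets was tested with an interaction term. None of the 17 tested member probe sets passed 5% FDR in limma (adjusted p between 0.358 and 0.973), against a background of 0.0666%, and 1 had an unadjusted p below 0.05, against 11% of all probe sets (2474 of 22519). For Gpx3 the interaction was -0.73 ± 0.456 on the log2 scale (adjusted p = 0.618 in limma). The pair titled 77 and 78 holds 1 array of each genotype, which limits this test. The family was also chosen on the genotype difference over these same arrays, so the interaction values of its members are read as a description.

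The rule for the members did not use the title-number sets, so the members could be tested between them. In the limma fit with genotype, 7 of 17 tested member probe sets (41.2%) differed between the arrays titled 77 and 78 and those titled 30 to 35 at 5% FDR, 2 higher and 5 lower, against a background of 27.4% (11.7% higher and 15.7% lower). They belong to 4 genes, Sod1, Sod3, Cat and Gpx4, and probe sets of a gene are not independent. The sets did not overlap at 9 of 17 (52.9%), against a background of 42.8%. Of the 7, Sod3 at 1417634_at passed the filter only through the arrays titled 30 to 35. Among the 16 probe sets above the filter level in both sets, 6 (37.5%) were called, 2 higher and 4 lower, and the sets did not overlap at 8 (50%). By the Xist and Eif2s3y signals given above, this contrast sets arrays that read as male against arrays that read as female. The sets also differ in the 18S control. The part of sex or of the 18S difference was not tested, and they cannot be told apart. Leaving out LIGHT Tg 1 or WT 1 leaves 1 array in the pair, which is then assumed to vary like the rest. For Gpx3 the difference was 0.23 ± 0.252 (adjusted p = 0.523), within the spread between arrays.

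Sod3 was low on the arrays titled 77 and 78. At 1417634_at signals were 138.7 and 57.8 on that pair, against 513.4, 628.1, 333.6 and 363.3 on the other 4, a log2 difference of -2.31 ± 0.210. Both signals of the pair lie under the filter level of 167.4 and have no detection call, so this size is given as a description. At 1417633_at the Sod3 difference was -0.61 ± 0.185 (adjusted p = 0.0479 in limma), and it did not pass without WT 1, WT 3 or any 1 of the LIGHT Tg arrays (adjusted p between 0.0729 and 0.304).

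Sod1 went both ways. At 1459976_s_at signals were 9414 and 9969 on the arrays titled 77 and 78, against 15481, 15529, 17397 and 17521 on the others, a log2 difference of -0.76 ± 0.063 (adjusted p = 0.000889 in limma). At 1440222_at they were 853.3 and 876.9, against 272.0, 215.2, 289.6 and 250.7, a log2 difference of 1.76 ± 0.170 (adjusted p = 0.00143). The sets did not overlap at either Sod1 probe set, and the directions were opposite. At 1451124_at Sod1 had -0.26 ± 0.066 (adjusted p = 0.0275), and at 1435304_at the difference was 0.00 ± 0.166. The call at 1451124_at was lost without each of the 6 arrays in turn (adjusted p between 0.0542 and 0.113).

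Catalase and Gpx4 each had 1 probe set past the threshold. Cat at 1416430_at was lower on the arrays titled 77 and 78 by a log2 difference of -0.35 ± 0.085 (adjusted p = 0.024 in limma), and the other Cat probe set had -0.21 ± 0.084 (adjusted p = 0.0949). Gpx4 at 1456193_x_at was higher there by 0.52 ± 0.145 (adjusted p = 0.0368), and its brighter probe set had 0.16 ± 0.109 (adjusted p = 0.293). Without LIGHT Tg 1 the adjusted p was 0.167 for Cat and 0.268 for Gpx4. The Cat call was also lost without WT 2, LIGHT Tg 2 or LIGHT Tg 3 (adjusted p between 0.0529 and 0.0631), and the Gpx4 call without WT 1, WT 2, LIGHT Tg 2 or LIGHT Tg 3 (0.0541 to 0.0911). Gpx1 had 0.20 ± 0.073 (adjusted p = 0.08), Gpx7 0.44 ± 0.219 (adjusted p = 0.171) and the 4 Sod2 probe sets -0.17 to 0.35 (adjusted p between 0.0562 and 0.610).

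**Figure D3:**
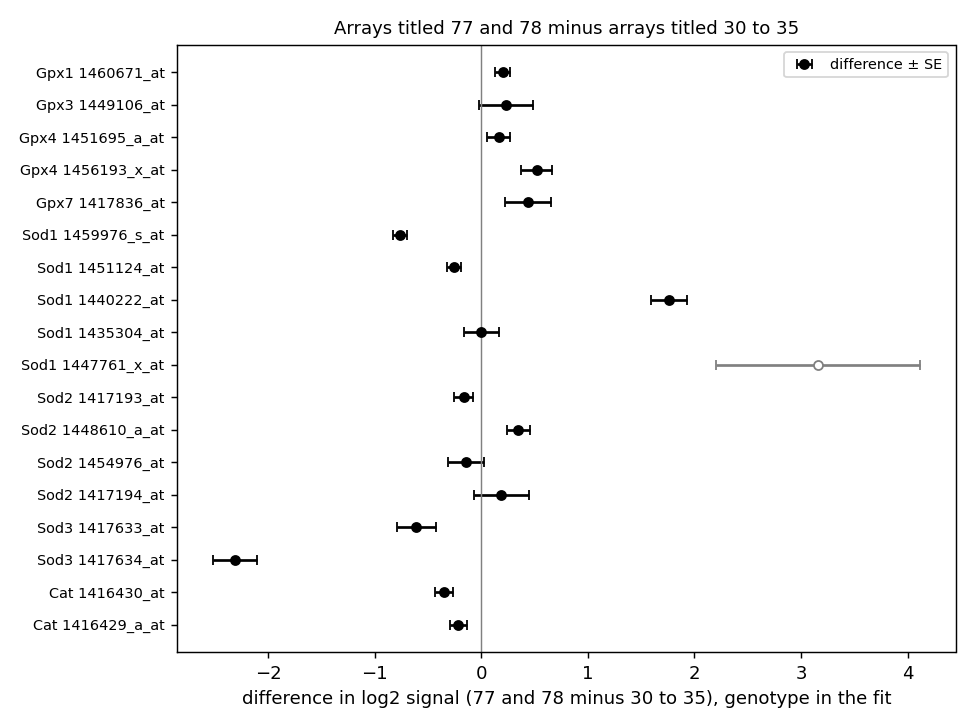
Difference in log2 signal, arrays titled 77 and 78 minus arrays titled 30 to 35, from the fit with genotype, for each of the 18 probe sets; circles and bars are the difference and its SE over 6 arrays, and the open grey circle is the probe set below the filter. Sod3 at 1417634_at lies at -2.31 and Sod1 at 1440222_at at 1.76, while Gpx3 lies at 0.23.

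Genes of related antioxidant, oxidant-making, NRF2, selenoprotein and metal handling groups were read from 7 lists, at the brightest probe set of each gene. Of 85 genes measured 79 passed the filter, and 1 rose and none fell at 5% FDR in limma (1.27% called, against a background of 1.17%). At an unadjusted p below 0.05, 8 had positive and 12 negative differences, 25.3% in all, against 11% of all probe sets tested (5.27% higher and 5.72% lower). The background includes dim probe sets and several per gene, so it is not matched to the brightest probe set of each gene. The lists were also chosen with earlier results of these data known. These limits hold for the shares of single lists below too, which are descriptions. With the title-number block 4 rose and 4 fell (10.1%, against a background of 6.47%). Nox4, counted among those that fell with the block and among the 12, passed the filter only through the WT arrays.

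The thioredoxin and peroxiredoxin list held the gene that rose. Glrx, glutaredoxin, which reduces glutathionylated proteins, had 3273, 3224 and 2752 in LIGHT Tg 1 to 3, against 1808, 1519 and 1502 in WT 1 to 3. The groups did not overlap, and Glrx rose by 0.94 ± 0.152 on the log2 scale (1.92-fold, adjusted p = 0.0401 in limma, 0.00488 with the block). The call was lost without WT 2, WT 3 or any 1 of the LIGHT Tg arrays (adjusted p between 0.0988 and 0.178), and also without the filter (0.0519) and without the variance trend (0.0874). Of the 14 genes tested in this list 13 did not pass, with a median over all 14 of 0.08. Prdx4, the peroxiredoxin of the endoplasmic reticulum, had 7948, 8655 and 8449 in LIGHT Tg 1 to 3, against 6077, 5003 and 5558 in WT 1 to 3 (0.59 ± 0.119, adjusted p = 0.0796, and 0.0146 with the block). Mitochondrial thioredoxin, Txn2, had 0.45 ± 0.142 and Prdx2 -0.36 ± 0.254.

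Genes of glutathione synthesis and recycling did not pass, 0 of 10 tested in limma, with a median of -0.04, and 4 (40%) had an unadjusted p below 0.05, all negative, against 11% of all probe sets tested. Gclm, the regulatory subunit of the rate-limiting enzyme of glutathione synthesis, had 1840, 3046 and 2181 in LIGHT Tg 1 to 3, against 3333, 4016 and 4614 in WT 1 to 3. All LIGHT Tg values lay below all WT values (-0.78 ± 0.221, adjusted p = 0.210, and 0.0241 with the block). Ahcy had -0.29 ± 0.112, Cth, which makes cysteine, -0.58 ± 0.233, and Oplah -0.50 ± 0.206.

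NRF2 is the transcription factor, encoded by Nfe2l2, that induces many antioxidant genes when its repressor Keap1 is oxidised. None of 19 tested genes of this list passed, 12 with positive and 7 with negative differences and a median of 0.12 (0.57 between the arrays titled 77 and 78, -0.11 among the others). In limma 7 (36.8%) had an unadjusted p below 0.05, 4 of them positive and 3 negative, against the same 11%. Nfe2l2 had 3986, 3744 and 4052 in LIGHT Tg 1 to 3, against 2513, 2608 and 3082 in WT 1 to 3, and the groups did not overlap (0.53 ± 0.136, adjusted p = 0.163, and 0.0358 with the block). Abcc4, an efflux transporter, had 1.01 ± 0.321 and the NRF2 partner Mafg -0.71 ± 0.247. Gclm, in this list too, had the negative difference given above.

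Gpx1, Gpx3 and Gpx4 contain selenocysteine, so genes of other selenoproteins and of their synthesis were read beside them. None of 19 tested passed in limma (median -0.09), and 3 (15.8%) had an unadjusted p below 0.05, all negative, against 11% of all probe sets. Msrb1, a methionine sulfoxide reductase, had 6705, 8398 and 7463 in LIGHT Tg 1 to 3, against 11742, 11106 and 10343 in WT 1 to 3, without overlap (-0.56 ± 0.122, adjusted p = 0.101, and 0.0222 with the block). Selenot had -0.36 ± 0.119, Selenow -0.37 ± 0.151 and the deiodinase Dio2 0.44 ± 0.203. The selenium carrier of plasma, Selenop, is named outside the rule and had a difference of -0.00 ± 0.111.

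The list of makers of superoxide or hydrogen peroxide also held oxidase subunits and Mpo, a peroxidase that uses hydrogen peroxide. Of its 11 tested genes 10 had negative differences, against 51.9% of all probe sets tested, and their median was -0.33, against -0.01 over all. None passed in limma, and 3 (27.3%) had an unadjusted p below 0.05, against 11% of all. Nox4, a NADPH oxidase that releases hydrogen peroxide, had 13.3, 220.3 and 65.4 in LIGHT Tg 1 to 3, against 1744, 938.3 and 901.1 in WT 1 to 3. The LIGHT Tg signals were all below the WT signals and varied widely, with a log2 difference of -4.30 ± 0.921. Nox4 was tested only because of its WT level, so the difference is given as a description. It is counted among the 10 negative genes, among the 3 and in the median, so those values are descriptions as well. Hao1, the peroxisomal glycolate oxidase, had 3762, 5751 and 4991 in LIGHT Tg 1 to 3, against 7408, 8224 and 8275 in WT 1 to 3 (-0.74 ± 0.172, adjusted p = 0.122, and 0.0101 with the block). Xdh, xanthine dehydrogenase, had -0.37 ± 0.152, and Mpo -0.88 ± 0.401.

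Metal handling genes did not pass in limma, 0 of 8 (median -0.12), with 1 (12.5%) at an unadjusted p below 0.05, against 11% of all probe sets. Slc39a14, a zinc, iron and manganese importer, had 6134, 6640 and 7003 in LIGHT Tg 1 to 3, against 3717, 3989 and 4859 in WT 1 to 3, without overlap (0.66 ± 0.141, adjusted p = 0.0965, and 0.012 with the block). Atp7b, the copper exporter, had -0.32 ± 0.187, Slc31a1 -0.29 ± 0.210 and Slc39a8 0.17 ± 0.190. Of 4 further glutathione peroxidase genes 2 passed the filter and neither was called, Gpx5 at 0.13 ± 0.316 and Gpx6 at -0.28 ± 0.377.

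**Figure D4:**
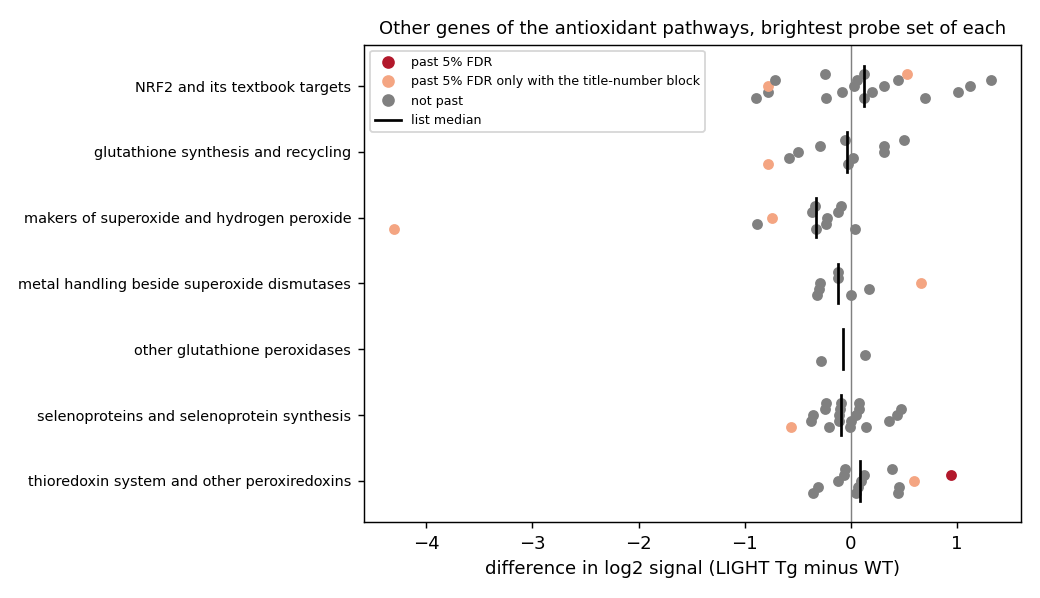
Difference in log2 signal, LIGHT Tg minus WT, of the tested genes of 7 lists; each point is a gene, dark red past 5% FDR, light orange past it only with the title-number block, and black lines are list medians. Glrx at 0.94 is past the threshold, and the median of the list of superoxide and hydrogen peroxide makers, oxidase subunits and Mpo is -0.33.

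Markers of other cell types were summed on each array beside the Gpx3 result, at 1 probe set per gene. Markers listed for kidney proximal tubule (7 of 7 measured) summed to 1451 to 1978 in LIGHT Tg and 1409 to 1531 in WT, so the groups overlapped. Umod, included in this sum, is a gene of the loop of Henle rather than of the proximal tubule. The brightest of the list was Kap, at 478.1, 887.3 and 1036 in LIGHT Tg 1 to 3 against 328.8, 604.6 and 577.5 in WT 1 to 3. Its log2 difference was 0.65 ± 0.363 (adjusted p = 0.622 in limma, and 0.0349 with the block). Slc5a2, the next, ranged over 198.1 to 545.2 in LIGHT Tg and 284.2 to 469.8 in WT. The other kidney markers went both ways, with log2 differences of 0.97 ± 0.919 for Cubn, 0.20 ± 0.330 for Slc22a6, -0.25 ± 0.250 for Lrp2, -0.69 ± 0.433 for Slc34a1 and -1.26 ± 0.784 for Umod, and of these only Lrp2 passed the filter. They are named outside the rule, to give the whole list. Hepatocyte markers (6 of 7) summed to 104388 to 109623 in LIGHT Tg and 104816 to 109361 in WT, with Apoa1 at -0.00 ± 0.0974 and Ttr at -0.01 ± 0.109 on the log2 scale. The liver label thus goes with bright hepatocyte genes in both genotypes. Sums overlapped between the genotypes for adipocytes (5 of 7), at 1148 to 2544 in LIGHT Tg and 1081 to 2172 in WT. They also overlapped for bile duct (5 of 7, 447.2 to 3981 in LIGHT Tg and 746.4 to 6300 in WT) and macrophages (7 of 7, 19668 to 31718 in LIGHT Tg and 28262 to 32276 in WT). The same held for neutrophils (5 of 6, 840.0 to 5034 in LIGHT Tg and 1670 to 3959 in WT) and red blood cells (3 of 6, 905.4 to 1341 in LIGHT Tg and 862.7 to 3244 in WT). Stellate cell sums (6 of 6) were 5811 to 7207 in LIGHT Tg and 7110 to 8135 in WT, and T cell sums (5 of 6) were 801.1 to 987.3 in LIGHT Tg and 827.6 to 980.5 in WT.

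Sums did not overlap for 3 of the 12 cell type lists. Among single probe sets tested the groups did not overlap at 17.4%, and a sum is set mostly by its brightest genes. Nothing is read from this count. Endothelial markers (6 of 6) summed to 9362 to 11980 in LIGHT Tg and 6600 to 7567 in WT. The brightest, the sinusoidal genes Clec4g and Stab2, had log2 differences of 0.36 ± 0.175 and 0.75 ± 0.176. At 5% FDR 1 of 6 rose, against a background of 0.715% of all probe sets called higher. It was Lyve1, named after its value was seen (1.24 ± 0.2, adjusted p = 0.0393 in limma). The remaining endothelial markers, named outside the rule, had 0.19 ± 0.213 for Pecam1, 0.12 ± 0.234 for Cdh5 and -0.09 ± 0.235 for Kdr. B cell markers (4 of 5) summed to 4484 to 6428 in LIGHT Tg and 856.8 to 1025 in WT, in LIGHT Tg mostly from Ighm, at 5978, 3872 and 4375 in LIGHT Tg 1 to 3 against 398.8, 413.8 and 330.4 in WT 1 to 3, while Ms4a1 had -0.19 ± 0.228. Pancreas acinar markers (4 of 6) summed to 977.1 to 1194 in LIGHT Tg and 1744 to 1781 in WT. Of these Cela1 had a log2 difference of -0.59 ± 0.185 (adjusted p = 0.261 in limma, and 0.0304 with the block). Prss2 lay below the filter and varied within WT, at 463.7 in WT 1 and 43.3 in WT 3. Cpa1 and Ctrb1, named outside the rule and also below the filter, had 0.17 ± 0.544 and 0.09 ± 0.560, so the acinar markers went both ways. The part of these cell types in the Gpx3 result was not tested.

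The 5 genes whose profile over the 6 arrays lay nearest to that of Gpx3 were Peg3, Crybb3, Bpifa1, Dnah11 and Ighm. Likeness was the root mean square distance between mean-centred log2 signals, which was 0.22 for Peg3, 0.32 for Crybb3, 0.33 for Bpifa1, 0.47 for Dnah11 and 0.50 for Ighm. Peg3, a paternally expressed imprinted gene, had 3846, 4679 and 4859 in LIGHT Tg 1 to 3, against 351.9, 241.0 and 380.5 in WT 1 to 3. Like Gpx3 it was lowest in WT 2 and, among the LIGHT Tg arrays, lowest in LIGHT Tg 1. The lens crystallin Crybb3 had 2797, 2232 and 3510 in LIGHT Tg 1 to 3, against 147.2, 135.9 and 206.5 in WT 1 to 3. Bpifa1 measured 702.2 to 893.1 in LIGHT Tg and 25.8 to 104.9 in WT, and Dnah11, an axonemal dynein, 385.7 to 976.2 in LIGHT Tg and 41.1 to 47.9 in WT. The LIGHT Tg arrays were the brighter ones for all 5 genes, and the groups did not overlap for any of them. Crybb3, Bpifa1 and Dnah11 passed the filter only through the LIGHT Tg arrays. Their WT means on the log2 scale were 7.33, 5.74 and 5.45, below the filter level of 7.39. Peg3 and Ighm had WT means of 8.31 and 8.57, above it. All 5 genes were picked for likeness over these arrays, so their differences are a description.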

How the data were processed

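Whole-liver RNA was measured on 6 arrays. Values are the authors' deposited MAS5 signal intensities, 1 linear signal per probe set. The submitters' processing notes give the name MAS5. No source used here gives its version, scaling target or detection calls. Trimmed means (2% at each end) lay between 490.0 and 505.1, so scaling per array is read from the values. Without detection calls, low signals carry no bound, and the number of arrays limits the precision.

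Of 45101 probe sets 64 controls were left out. Names came from the array's annotation table, checked against RefSeq (GRCm38.p6), which changed 0 symbols; 34945 probe sets had 1 symbol, 932 several and 9160 none, and none with several was named. Promoter windows came from RefSeq. Signals below 1 were set to 1 and log2 taken. Probe sets with a mean log2 signal at or above the median (7.39, a signal of 167.4) were tested, 22519 in all, in limma 3.58.1 (R 4.3.3) with a variance trend, two-sided, Benjamini-Hochberg adjusted over all of them at 5% FDR. Exact permutation of 3 against 3 cannot go below 0.1. The title-number set was fitted beside genotype, alone and as an interaction. Steps were tested on simulated data. Figures used matplotlib 3.10.9.

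The members and lists were chosen with earlier results of these data known. Of 96 pathway entries 6 had no probe set of their own, and of 76 entries in 12 cell type lists 13. Named are all members, up to 4 genes per pathway list by moderated statistic, the 2 brightest genes of the kidney, hepatocyte, endothelial, B cell and acinar lists, and the 5 genes nearest in profile to Gpx3. Others are said to be outside this rule. Alternatives were other filters, an offset of 37.5 before log2, quantile or median normalization, eBayes without trend or robust, array weights, the title-number block, the arrays titled 30 to 35 alone, each array left out, and for members the mean of all probe sets.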

Additional observations from a re-analysis of the deposited data

Results flagged for a closer look

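Gstm3, a glutathione transferase of the NRF2 list, was looked at because its genotype difference was unlike in the title-number sets by a test of that difference. Its signals were 8774, 5318 and 4951 in LIGHT Tg 1 to 3, against 1564, 3751 and 3860 in WT 1 to 3, so the groups did not overlap. LIGHT Tg minus WT was 2.49 on the log2 scale between the arrays titled 77 and 78 and 0.43 among those titled 30 to 35. The interaction was 2.06 ± 0.177 (adjusted p = 0.0438 in limma), and its adjusted p lay between 0.0393 and 0.209 under the other settings. The pooled difference was 1.12 ± 0.387 (adjusted p = 0.326 in limma). The suffix of its probe set marks probes shared by several transcripts, so related transferases cannot be told apart.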

How the results depend on the processing

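Gpx3 kept its direction and size under all 13 alternatives, with log2 differences of 3.82 to 4.32 when 1 array was left out and 4.04 to 4.37 otherwise. The title-number block and the mean of all probe sets could not change this value. Both title-number sets hold the genotypes in equal numbers, and Gpx3 has 1 probe set. The contrast chose the family, so this range is a description. The count of 264 probe sets past 5% FDR for LIGHT Tg against WT was 148 without the variance trend, 1992 with array weights, 1457 with the title-number block and 956 in the arrays titled 30 to 35. Leaving out 1 array gave 43 to 306. WT 2 (68), WT 3 (63), LIGHT Tg 2 (80) and LIGHT Tg 3 (43) moved it by more than 1.5 times. The 6163 probe sets that differed between the title-number sets became 3465 with the 75th percentile filter, which tests fewer probe sets, 3632 with array weights and 2698 to 4632 when 1 array was left out. The 15 with an interaction became 3 without the filter, 7 with the 75th percentile filter, 8 with the offset and 2 without the trend. The causes were not tested. Between the genotypes the difference changed sign when 1 array was left out for Cat (-0.19 to 0.06), Sod1 (-0.41 to 0.10) and Sod2 (-0.14 to 0.02) at their brightest probe sets. It moved by more than 1.5 times for Gpx1 without WT 1 (-0.11), Gpx4 without LIGHT Tg 1 (-0.34) or LIGHT Tg 2 (-0.14), Gpx7 without WT 2 (0.14) or LIGHT Tg 1 (0.10), and Sod3 without LIGHT Tg 1 (0.75) or LIGHT Tg 3 (0.31). With the mean of all its probe sets Sod2 was at -0.30. Between the title-number sets, 4 of the 7 calls were lost without the filter, without the trend and with array weights, those of Sod3 at 1417633_at (adjusted p between 0.061 and 0.085 in limma), Cat at 1416430_at (0.0543 to 0.108), Sod1 at 1451124_at (0.0687 to 0.161) and Gpx4 at 1456193_x_at (0.0502 to 0.0918). That of Gpx4 was also lost with a common median (0.0509). Quantile normalization added calls for Gpx1 (adjusted p = 0.0264 in limma) and Sod2 at 1448610_a_at (0.029). No paired analysis was possible because the labels give no replicate numbers shared by the genotypes, and those used here only follow the listing order.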

Other observations

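Some further genes were chosen after their values were seen. Gpx2, the epithelial glutathione peroxidase, had a signal of 553.0 in LIGHT Tg 1 and 57.8 and 89.5 in LIGHT Tg 2 and 3, against 95.1, 95.8 and 87.0 in WT 1 to 3, so 1 array stood apart. Hmox1, heme oxygenase, had 670.3, 801.6 and 1492 in LIGHT Tg 1 to 3, against 91.8, 640.7 and 885.6 in WT 1 to 3, with WT 1 far below the rest. Gclc, the catalytic partner of Gclm, had 4910, 5722 and 5381 in LIGHT Tg 1 to 3, against 2213, 6155 and 5855 in WT 1 to 3, again with WT 1 the lowest. Neither Hmox1 nor Gclc was called between the genotypes in limma (adjusted p = 0.669 for Hmox1 and 0.891 for Gclc), and Gpx2 lay below the filter.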
